A study of Mus musculus with 43 samples.

Results

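The tables counted small RNA reads from the mouse epididymis on 5 reference sequences of nuclear ribosomal RNA: 28S_rRNA_1 and 28S_rRNA_2, which are 2 database entries of the 28S rRNA, and 18S_rRNA, 5_8S_rRNA and 5S_rRNA. The 5 were taken by name, and they were the same in each table, out of 4890 features in tissue, 3178 in epididymal fluid and 4323 in sperm. RepeatMasker copies of rRNA in the genome (883, 352 and 604 features in these tables) and the mitochondrial rRNAs LSU_mito and SSU_mito were counted apart and served here only for comparison. The reads came from small RNA libraries, so a count on a member was a count of short rRNA fragments (rsRNAs) and not of intact rRNA.

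All mice were FVB males of 8 to 12 weeks. KO mice were homozygous for a germline deletion, made with CRISPR-Cas9, of the cluster of RNase A family genes Rnase9, Rnase10, Rnase11 and Rnase12, which are expressed in the epididymis, and WT mice carried the intact cluster. Tissue was sampled from caput, corpus and cauda with 3 WT and 3 KO libraries per segment, except for corpus KO with 2. Luminal fluid, cleared of sperm, vesicles and debris by centrifugation, was sampled from the same 3 segments with 3 libraries per group. Cauda sperm had 4 libraries per genotype, which gave 43 libraries in all. Each fluid or sperm library pooled the RNA of several mice, and for tissue the number of mice per library was not stated. The deletion was constitutive. None of the deleted genes is a counted feature, and the genotype labels therefore could not be checked in these libraries.

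The 18S rRNA is the RNA of the small ribosomal subunit, and the 28S, 5.8S and 5S rRNAs belong to the large one. RNA polymerase I transcribes 18S, 5.8S and 28S as a single precursor that is cut into the 3 mature RNAs, while RNA polymerase III transcribes 5S from separate genes. Within the large subunit 5.8S is base-paired with 28S. Fragments of these RNAs are abundant in the epididymis and in sperm, and RNases of the A family leave 3′ phosphate ends, which is why the RNA was treated with polynucleotide kinase (PNK) before library preparation.

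A read with equally good matches on more than 1 feature added a count to all of them, so the counts of a member and those of its repeat copies can hold the same reads.

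Depth, as the sum of counts in a library, lay between 30142156 and 249732714 in tissue, 1948718 and 12320922 in fluid, and 1134840 and 62128314 in sperm, where WT libraries 2 to 4 and KO library 4 held 1134840 to 3618739. The tissue libraries numbered 3 stood apart in the share of rRNA counts on the reference sequences, and the sperm libraries numbered 4 stood apart in 5_8S_rRNA. Results that rest on them are given with and without them. For 7 libraries, caput by title and description, another label gave the section as cauda: WT caput tissue library 3 and the 6 caput fluid libraries. They were grouped by title. Library 3 lay near the other WT caput tissue libraries in 28S_rRNA_1 (0.753% of counts against 0.396% and 0.495%) and far from WT cauda (3.41% to 3.74%). Since 28S_rRNA_1 is itself compared between segments below, this is no independent check of the label. The label of the 6 caput fluid libraries was not checked. The labelled tissue was compared with miRNA markers, as counts over all counts of the library, without TMM factors (unscaled CPM). Of 5 epithelial miRNAs all 5 were counted in each table, and their sum ran from 4.25 to 33.5 unscaled CPM in tissue. In sperm the epithelial sum ran from 5.52 to 23.3, inside the tissue range. Of 5 male germ cell miRNAs 2 were listed in tissue, at a sum of 0.0247 to 0.421 unscaled CPM, without Mir449a, Mir449b and Mir449c. In sperm 4 of the 5 were listed, at 15.9 to 57.4 unscaled CPM, without Mir449b. Of 2 erythroid miRNAs 1 was listed in tissue (Mir144 was not), at 0 in 4 libraries and at most 0.0442 unscaled CPM. Of 3 smooth muscle miRNAs 2 were listed in tissue and fluid, without Mir145b, and their tissue level is given with the segments. In sperm all 3 were listed, at a sum of 4.42 to 20.1 unscaled CPM, and the 2 erythroid miRNAs summed to 1.04 to 61.6. The sperm libraries thus held counts of all 4 marker lists.

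**Figure D1:**
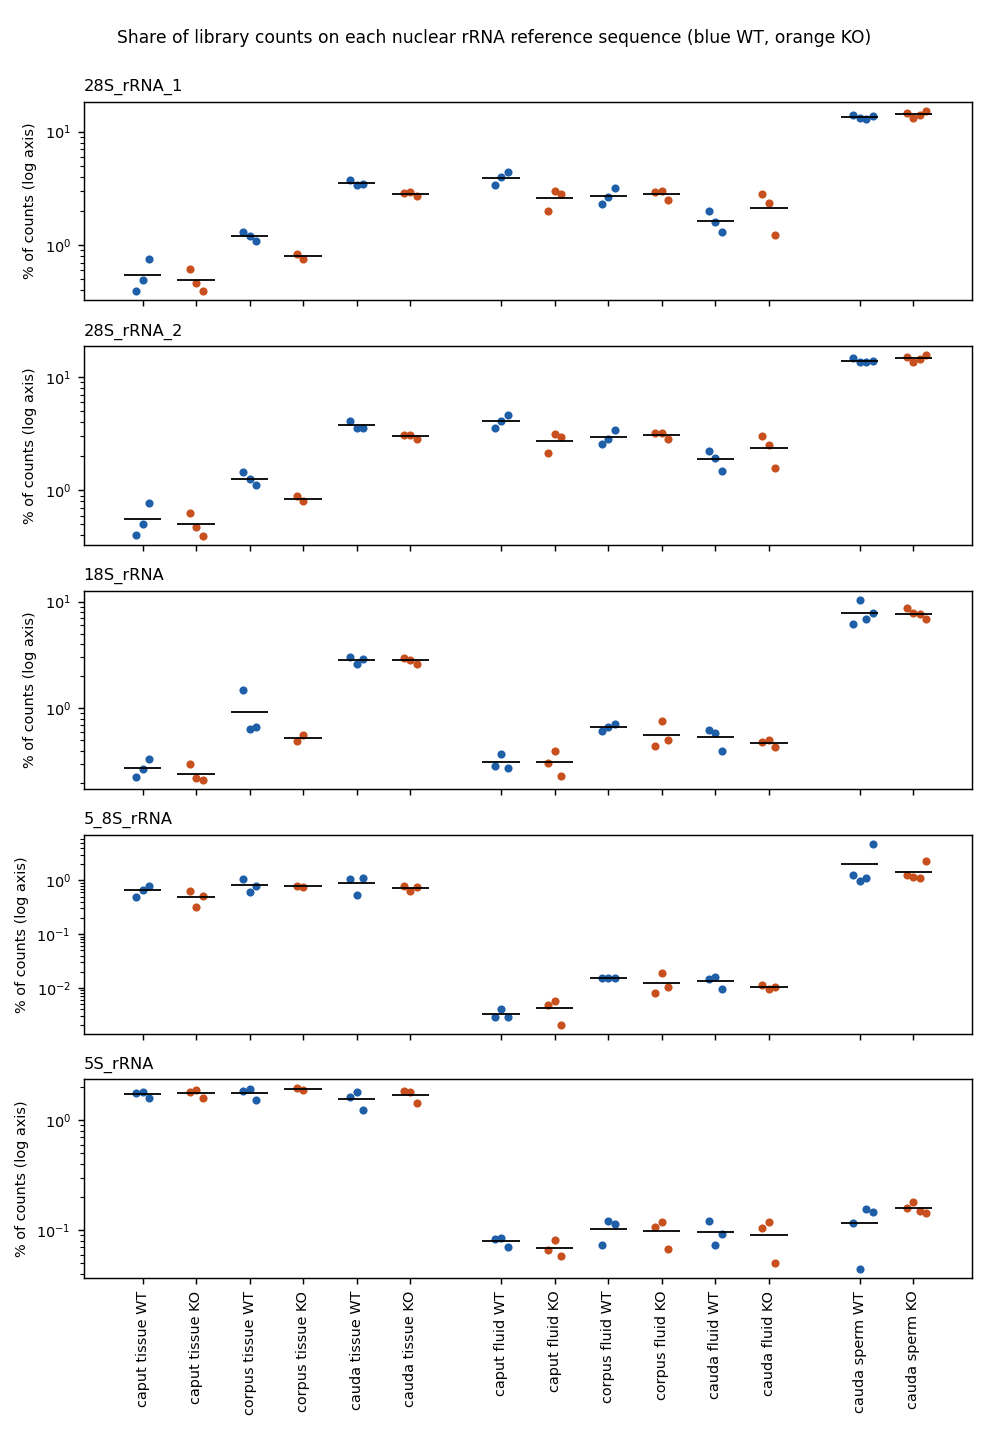
Percent of all counts of a library that fell on each member (log axis), for 43 libraries in 14 groups; points are libraries, bars are group means. In tissue 28S_rRNA_1 ran from 0.390% to 0.753% in caput and from 2.73% to 3.74% in cauda, while 5S_rRNA stayed between 1.23% and 1.95% in every tissue library.

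Along the epididymis tissue, fragments of 28S and 18S rRNA rose steeply from caput to cauda, 9.95-fold and 15.6-fold in WT, while those of 5S did not pass the test. In CPM with library sizes scaled by TMM, a trimmed mean over features, which was the level tested and is meant by CPM alone, 28S_rRNA_1 was at 3071, 3394 and 5220 in the 3 WT caput libraries, at 15986, 12491 and 7857 in WT corpus and at 39706, 52674 and 23893 in WT cauda. In KO it was at 5794, 4171 and 2608 in caput, 11011 and 7970 in corpus, and 56684, 53293 and 25945 in cauda. Neither corpus nor cauda overlapped with caput in either genotype. Among all features, 14.1% lay without overlap above caput in WT corpus, 19.3% in WT cauda, 26.1% in KO corpus and 19.2% in KO cauda. In bulk tissue, fewer cells of a type and less RNA per cell cannot be told apart.

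The WT cauda against caput difference of 28S_rRNA_1 was a log2 fold change of 3.31 ± 0.46 (SE, adjusted p = 5.2e-05, edgeR quasi-likelihood test over 3488 features, n = 3 and 3). Without WT caput library 3 it was 3.67. For 28S_rRNA_2 it was 3.37. Both 28S entries count largely the same reads and are 1 measurement. 18S_rRNA rose by more, from 1755, 1865 and 2329 CPM in WT caput to 32390, 40519 and 20074 in WT cauda, at a log2 fold change of 3.97 ± 0.53 (adjusted p = 4.1e-05). In KO the same contrast was 3.43 for 28S_rRNA_1 and 4.45 for 18S_rRNA (21.8-fold). The size of these rises depended on the scaling. With library size alone, 28S_rRNA_1 and 18S_rRNA rose by 2.69 and 3.36 in WT and by 2.53 and 3.52 in KO (log2). A call required both an adjusted p below 0.05 and a log2 fold change beyond 1 in either direction. By this rule 3 of 5 members were called higher in WT cauda than in WT caput, where 15.7% of all features were called higher, and 4 of 5 in KO, where 17.1% were. The corpus lay between: 28S_rRNA_1 rose by 1.64 ± 0.43 and 18S_rRNA by 2.31 ± 0.49 (log2) in WT, and 3 of 5 members were called higher against 9.0% of all features. The corpus call of 28S_rRNA_1 was lost without WT caput library 1 (log2 fold change 1.48), WT caput library 2 (1.55) or WT corpus library 1 (1.39), and the count then fell to 1 of 5. In KO corpus, with 2 libraries, none of 5 members was called, against 0.487% of all features called higher, although 4 were higher at an unadjusted p under 0.05, as were 6.88% of all features. The tissue labels carry 1 number across the segments, and in the fit blocked by it 18S_rRNA (1.30) and 5_8S_rRNA (1.05) were called. The share of all features called in that blocked fit is not given here. Same-numbered libraries hardly deviated together in this KO contrast, with correlations of 0.063 and 0.033.

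Fragments of 5.8S rRNA, which shares its precursor with 28S and 18S, changed far less. 5_8S_rRNA was at 3783, 4636 and 5513 CPM in WT caput and 11365, 8154 and 7625 in WT cauda, groups that did not overlap, with a log2 fold change of 0.96 ± 0.39 (adjusted p = 0.089). Same-numbered tissue libraries deviated together in this contrast, and in the fit blocked by replicate number the change was 1.07 and was called (adjusted p = 0.011). Without the libraries numbered 3 it was 1.33 (adjusted p = 0.030). In KO 5_8S_rRNA rose by 1.47 ± 0.40 in cauda (adjusted p = 0.010), a call that was lost without KO caput library 2 (log2 fold change 1.29), KO caput library 3 (1.35) or KO cauda library 1 (1.08), and with scaling by library size alone, which gave 0.56. 5S_rRNA, the RNA polymerase III product, was at 13790, 12347 and 11004 CPM in WT caput and 17406, 28137 and 8466 in WT cauda, so the groups overlapped. Its log2 fold change was 0.54 ± 0.44 in WT (adjusted p = 0.42) and 0.90 ± 0.45 in KO (adjusted p = 0.14). The KO value was 1.28 and called without the libraries numbered 3 (adjusted p = 0.0024), and with library size alone both turned to -0.14 and -0.06. Scaling by library size alone moved the median of all features by -0.46 in WT and -0.73 in KO.

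The mitochondrial rRNA fragments, measured beside the nuclear ones, also rose from caput to cauda tissue in WT: LSU_mito by 4.34 ± 0.50 (log2, adjusted p = 1.8e-05 by edgeR) and SSU_mito by 4.82 ± 0.53. Whether they rose by more than the nuclear ones was not tested. The smooth muscle miRNAs also differed between segments. Their sum was 30.0 to 51.9 unscaled CPM in WT caput, 36.4 to 83.8 in WT corpus and 69.7 to 231 in WT cauda. In KO it was 25.1 to 59.5 in caput, 18.6 to 28.2 in corpus and 62.3 to 113 in cauda. The 5 epithelial miRNAs summed to 11.04 to 29.04 unscaled CPM in WT caput, 13.4 to 27.1 in WT corpus and 5.61 to 19.2 in WT cauda. In KO the epithelial sum was 12.2 to 33.5 in caput, 8.16 to 9.99 in corpus and 4.25 to 8.19 in cauda. Their part in the rRNA differences was not tested.

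**Figure D2:**
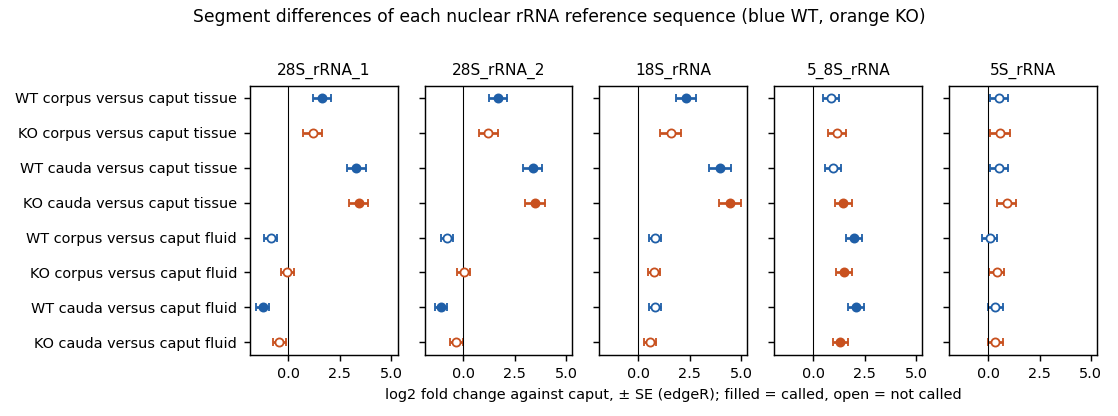
Log2 fold change of corpus and cauda against caput for each member, ± SE from edgeR, in tissue and fluid, WT (blue) and KO (orange); filled points were called and open points were not. In cauda tissue 28S_rRNA_1 and 18S_rRNA lie between 3.31 and 4.45, while in fluid 28S_rRNA_1 lies at or below 0 and 5_8S_rRNA at 1.32 to 2.08.

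In the luminal fluid the members did not move together: toward the cauda, fragments of 28S rRNA fell, those of 5.8S rose, and 5S did not pass the test. In WT fluid 28S_rRNA_1 was at 36681, 42020 and 55045 CPM in caput, 23233, 25370 and 25453 in corpus and 22731, 14432 and 19504 in cauda. Every caput library lay above every corpus and cauda library, as for 21.5% of all features in corpus and 26.6% in cauda. From caput to cauda 28S_rRNA_1 fell by 1.24 on the log2 scale (SE 0.32, adjusted p = 0.0073, edgeR over 2023 features), and 28S_rRNA_2 fell by 1.10. The call of 28S_rRNA_1 was lost, at a log2 fold change just inside -1, without WT caput library 3 (-0.98) or WT cauda library 2 (-0.997), where the count of called members fell from 3 to 1. In KO fluid the same contrast was -0.43 ± 0.31 (adjusted p = 0.32), and the difference between the genotypes of this contrast was not called.

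5_8S_rRNA was scarce in fluid, with 193 to 1838 counts per library. It was at 30.6, 42.7 and 35.03 CPM in WT caput, 154, 145 and 125 in WT corpus and 169, 143 and 145 in WT cauda, so that the caput libraries lay below all others. Of all features, 16.8% lay above caput without overlap in corpus and 16.5% in cauda. It rose 3.91-fold to corpus (log2 1.97 ± 0.38, adjusted p = 0.0021) and 4.22-fold to cauda (log2 2.08 ± 0.38, adjusted p = 0.00076). In KO it was at 40.5, 52.4 and 26.1 CPM in caput and 86.3, 97.4 and 114 in cauda, and rose by 1.32 ± 0.37 (adjusted p = 0.014). In KO corpus it rose by 1.51 ± 0.38. The KO calls were less stable: the cauda call was lost without KO caput library 3 (1.09) or KO cauda library 3 (1.13), and the corpus call without KO caput library 3 (1.26) or KO corpus library 2 (0.96). 18S_rRNA moved the same way as 5.8S and by less, from 3116, 3930 and 3447 CPM in WT caput to 7175, 5227 and 5952 in WT cauda. These groups did not overlap, and the log2 fold change of 0.81 ± 0.29 (adjusted p = 0.045) was below the limit of 1 for a call. 5S_rRNA was at 903, 911 and 877 CPM in WT caput and 1379, 662 and 1385 in WT cauda, overlapping, with a log2 fold change of 0.35 ± 0.37.

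Over WT cauda fluid against WT caput fluid, 2 members (both 28S entries) were called lower, against 15.4% of all features, and 1 (5_8S_rRNA) higher, against 9.69%. Corpus against caput gave 1 called higher in WT, against 8.21%, and 1 in KO, against 11.5%. KO cauda against caput also gave 1, against 11.5%. When the scaling factors were computed without rRNA features, 18S_rRNA reached 1.10 in WT corpus and 1.04 in WT cauda and was called, and 28S_rRNA_2 reached -0.86 and was not. Markers of other cells moved along the same segments in WT fluid. The 3 listed male germ cell miRNAs, of 5, summed to 1.85 to 3.29 unscaled CPM in caput, 3.74 to 11.3 in corpus and 10.02 to 27.9 in cauda, and Mir449b and Mir449c were not listed. The 2 smooth muscle miRNAs summed to 72.3 to 128, 94.6 to 172 and 97.6 to 284 unscaled CPM. The 5 epithelial miRNAs summed to 96.99 to 168 in WT caput, 28.3 to 76.5 in corpus and 49.8 to 147 in cauda. In KO fluid the germ cell sum was 3.42 to 3.84, 12.9 to 17.96 and 12.3 to 29.8 unscaled CPM. There the epithelial sum was 236 to 289, 89.3 to 166 and 98.7 to 168, so that caput lay above both other segments without overlap, and the smooth muscle sum was 119 to 151, 139 to 330 and 193 to 433. In WT the 2 erythroid miRNAs summed to 19.6 to 23.2, 18.8 to 52.9 and 37.3 to 53.8 unscaled CPM. Their part in the fluid differences was not tested.

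Ratios between members within 1 library do not depend on how libraries are scaled to each other. The 4 ratios were computed, as log2 of the raw counts, and 52 tests were adjusted together. The largest shift was that of 5.8S against 28S, which went in opposite directions in tissue and fluid. In tissue the log2 ratio of 5_8S_rRNA to 28S_rRNA_1 was 0.301, 0.450 and 0.0788 in the 3 WT caput libraries and -1.80, -2.69 and -1.65 in WT cauda. Over both genotypes it fell by 2.14 from caput to cauda (0.228-fold, 2-sided exact permutation test with segments exchanged within genotype, p = 0.005, adjusted p = 0.026, lower in each of 6 cauda libraries than in any caput library). In fluid the same ratio was far lower, at -10.2, -9.94 and -10.6 in WT caput and -7.07, -6.66 and -7.07 in WT cauda. It rose there by 2.55 (5.87-fold, exact permutation p = 0.005, adjusted p = 0.026), and by 2.13 from caput to corpus (adjusted p = 0.026 by the same exact test). The smallest p this design allows is 0.005 for cauda and for fluid corpus, and 0.01 for tissue corpus.

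The ratio of 28S to 18S fell along both tissue and fluid. In tissue the log2 ratio of 28S_rRNA_1 to 18S_rRNA was 0.807, 0.864 and 1.16 in WT caput and 0.294, 0.378 and 0.251 in WT cauda, a fall of 0.81 over both genotypes (exact permutation p = 0.005, adjusted p = 0.026). In fluid it was 3.56, 3.42 and 3.997 in WT caput, 1.90, 1.999 and 2.14 in WT corpus and 1.66, 1.47 and 1.71 in WT cauda. In KO fluid it was 2.69, 2.91 and 3.60 in caput, 2.74, 1.98 and 2.31 in corpus and 2.54, 2.19 and 1.49 in cauda, so that KO caput and cauda lay closer together. Over both genotypes it fell by 1.52 from caput to cauda (0.349-fold, exact permutation p = 0.005, adjusted p = 0.026). The fall was 2.04 in WT and 0.99 in KO. The difference between these, 1.05, did not pass (exact permutation of the genotypes within segments, p = 0.055, adjusted p = 0.21). Of 16 such tests none passed, and this p was the smallest, shared with that of 5.8S to 28S in the same contrast.

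The ratio of 5S to 5.8S, both short RNAs of the large subunit with separate genes, fell toward the cauda in fluid and did not pass in tissue, and the difference between tissue and fluid was not tested. In WT tissue the log2 ratio of 5S_rRNA to 5_8S_rRNA was 1.87, 1.41 and 0.997 in caput and 0.615, 1.79 and 0.151 in cauda, which overlap, and the fall of 0.62 over both genotypes did not pass (exact permutation p = 0.08, adjusted p = 0.30). In WT fluid it was 4.88, 4.42 and 4.65 in caput and 3.03, 2.21 and 3.25 in cauda, and over both genotypes it fell by 1.45 (exact permutation p = 0.005, adjusted p = 0.026). The log2 ratio of both 28S entries stayed near 0, from -0.138 to -0.0217 in tissue and from -0.368 to -0.0473 in fluid. It still fell toward the cauda, by 0.05 in tissue and 0.13 in fluid or 0.967-fold and 0.911-fold (exact permutation, adjusted p = 0.026 for each). In all, 12 of 16 ratio tests between segments passed an adjusted p of 0.05. Leaving out any library leaves fewer arrangements and can raise the smallest possible p. A pass lost in this way therefore does not show that a difference rested on that library. Without KO caput fluid library 2 or library 3, none of the 8 fluid tests passed (adjusted p of 0.052 to 0.08), while the differences kept their direction. Among them, 28S to 18S in corpus was also lost without KO corpus library 2 or 3, and in cauda the ratio of both 28S entries without KO caput library 1 and 5S to 5.8S without KO cauda library 3 (adjusted p = 0.065 for each, exact permutation). In tissue the ratio of both 28S entries was lost in corpus without any one of the caput and corpus libraries except WT corpus library 3, and in cauda without any one WT caput library, while 28S to 18S in corpus passed without WT corpus library 2 (-0.53). The tests of 28S against 18S and of 5.8S against 28S in cauda tissue passed without any one library. Same-numbered tissue libraries deviated together, and paired by number, in a test with fewer arrangements, both had an adjusted p of 0.16 (exact sign-flip permutation).

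**Figure D3:**
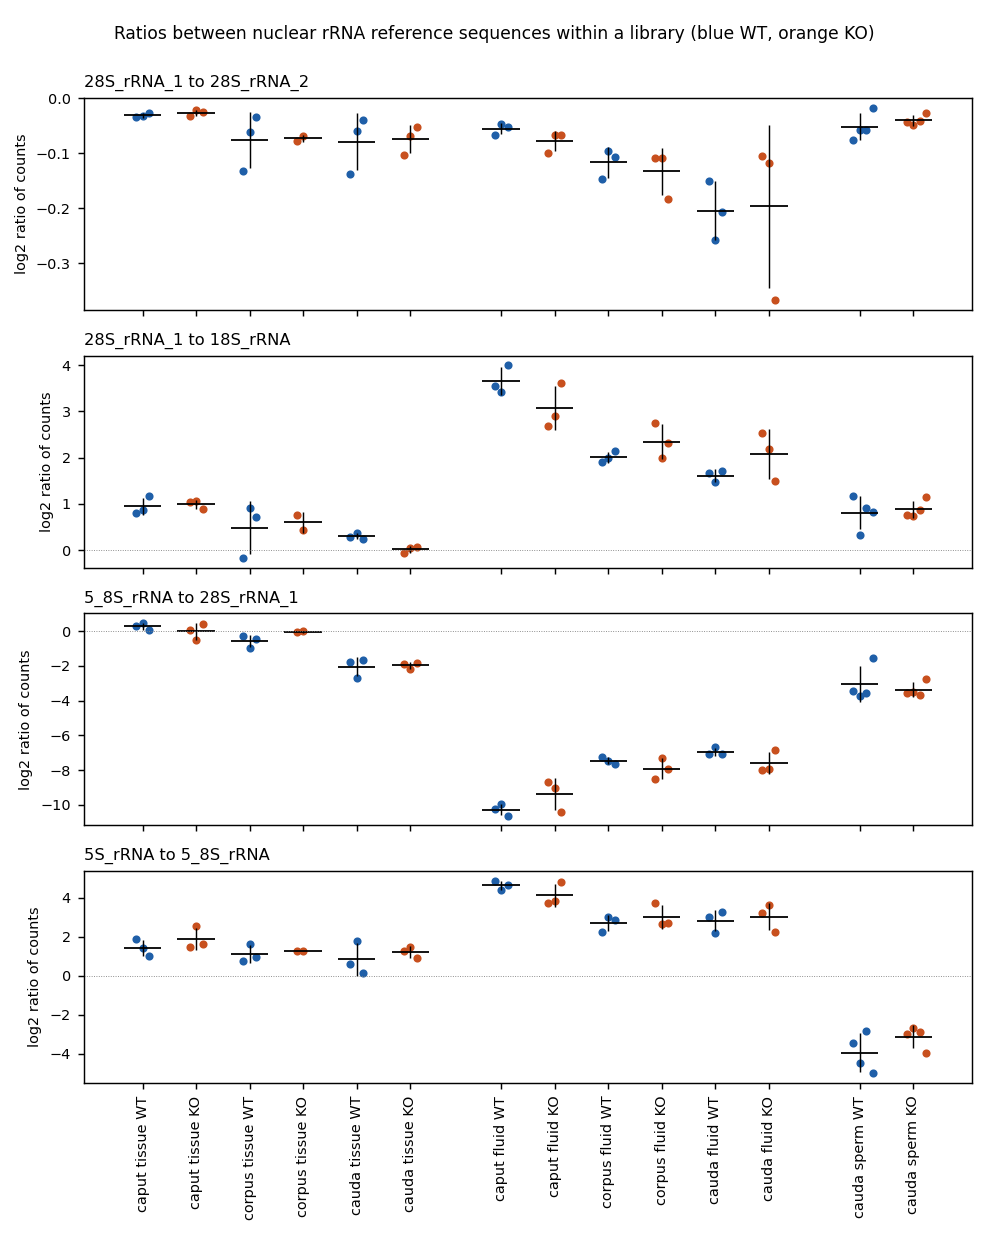
Log2 ratios of the counts of 2 members within a library; points are libraries, bars are group means and vertical lines ± SD. The ratio of 5_8S_rRNA to 28S_rRNA_1 lies near 0 in caput tissue and near -2 in cauda tissue, between -10.6 and -6.66 in fluid, and between -3.72 and -1.53 in sperm.

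The comparison of KO with WT asked whether loss of the Rnase9-12 cluster changed these fragments. No member was called in any of the 7 comparisons by edgeR, nor by DESeq2, nor in the mean over segments, where the smallest adjusted p was 0.48 in tissue (0.659% of all features called) and 0.23 in fluid (6.77% called). Of all features, 0.00% were called in caput tissue, 0.00% in corpus tissue, 0.860% in cauda tissue, 0.00% in caput fluid, 19.7% in corpus fluid, 0.00% in cauda fluid and 0.00% in sperm. These shares depended on the method. DESeq2 called 105 features lower and 69 higher of 3488 in cauda tissue, and 117 lower and 5 higher of 2480 in sperm. In cauda tissue, where same-numbered libraries deviated together, the fit blocked by replicate number called 126 lower and 233 higher of 2498. Without WT sperm library 4, edgeR called 207 lower and 119 higher of 2836 in sperm. No member was among the calls of any of these fits. At an unadjusted p under 0.05, both 28S entries were lower in KO caput fluid, against 5.14% of all features lower, and 5S_rRNA was higher in KO sperm, against 8.02% of all features higher. By DESeq2 the unadjusted count over the 7 comparisons was also 3, the same 28S values and 5_8S_rRNA in cauda fluid. Whether the KO effect differed between segments was tested too, and no member was called, against 1.83% of all features in corpus fluid and 0.00% in the other 3 contrasts with caput (smallest adjusted p = 0.46 in fluid and 0.97 in tissue).

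In cauda tissue the share of counts on 28S_rRNA_1 was lower in KO and its scaled level was not. It took 3.74%, 3.41% and 3.47% of all counts in WT cauda and 2.85%, 2.93% and 2.73% in KO cauda, so that WT and KO did not overlap and KO was the lower. The share of 28S_rRNA_2, which counts largely the same reads, did not overlap either. Those of 18S_rRNA, 5_8S_rRNA and 5S_rRNA overlapped, with 18S_rRNA at 2.62% to 3.05% in WT and 2.60% to 2.99% in KO, and 5S_rRNA at 1.23% to 1.82% and 1.43% to 1.86%. How many of all features lay apart in unscaled share was not counted. On the TMM scale both 28S entries overlapped between genotypes, while 10.1% of all features lay lower in KO without overlap. The log2 fold change of 28S_rRNA_1 was 0.23 ± 0.42 on the TMM scale (adjusted p = 0.85 by edgeR). With library size alone it was -0.32 (adjusted p = 0.56 by edgeR), so the direction depended on the scaling. It also turned without WT cauda library 3 (-0.20), KO cauda library 1 (-0.29) or KO cauda library 2 (-0.059). The 5 members together took 12.6% ± 0.899 (SD, n = 3) of counts in WT cauda and 11.1% ± 0.627 in KO cauda (2-sided exact permutation p = 0.1, the smallest that 3 against 3 allows, adjusted p = 0.35 over 7 comparisons). Their log2 difference was -0.19, and -0.045 with the repeat copies left out of the denominator. Within a library, the log2 ratio of 28S_rRNA_1 to 18S_rRNA was 0.294, 0.378 and 0.251 in WT cauda against -0.0675, 0.0450 and 0.0708 in KO cauda, which also did not overlap. The difference of -0.29 had p = 0.1 by exact permutation, the smallest possible, and an adjusted p of 0.33. None of 28 such single comparisons of ratios, and none of 8 tests within segments, passed. In KO cauda tissue LSU_mito rose by 1.73 ± 0.45 and SSU_mito by 1.68 ± 0.46 (log2), with adjusted p = 0.094 and 0.099, so neither mitochondrial rRNA was called. The 5 epithelial miRNAs summed to 5.61 to 19.2 unscaled CPM in WT cauda and 4.25 to 8.19 in KO cauda, and the 2 smooth muscle miRNAs to 69.7 to 231 and 62.3 to 113, and their part in these values was not tested.

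In caput fluid 28S_rRNA_1 was at 36681, 42020 and 55045 CPM in WT and 16686, 26873 and 35542 in KO, which did not overlap. KO was the lower group, as it was for 12.7% of all features, and 5S_rRNA did not overlap either. The log2 fold change was -0.76 ± 0.32 (unadjusted p = 0.025, adjusted p = 0.36 by edgeR), with a 95% interval from -1.38 to -0.14. Over the alternatives it lay between -1.03 and -0.42, at an adjusted p of 0.11 to 0.88 by edgeR or DESeq2. 18S_rRNA was at -0.21 ± 0.29 and 5_8S_rRNA at 0.14 ± 0.37 in the same comparison. The 5 members took 8.41% ± 1.04 of counts in WT caput fluid and 5.72% ± 1.07 in KO (exact permutation p = 0.1, adjusted p = 0.35). The sum of the 5 epithelial miRNAs was 96.99 to 168 unscaled CPM in WT caput fluid and 236 to 289 in KO caput fluid, and that of the 2 smooth muscle miRNAs 72.3 to 128 and 119 to 151, and that of the 3 male germ cell miRNAs 1.85 to 3.29 and 3.42 to 3.84. The 2 erythroid miRNAs overlapped, at 19.6 to 23.2 and 18.5 to 50.6. Their part in the 28S value was not tested. In corpus fluid, where 399 of 2023 features were called, the members' log2 fold changes lay between -0.33 and 0.06. In cauda fluid they lay between -0.62 for 5_8S_rRNA and 0.05 for 28S_rRNA_1. Of the cauda fluid values, 5_8S_rRNA (169, 143 and 145 CPM in WT, 86.3, 97.4 and 114 in KO) and 18S_rRNA did not overlap between genotypes and were lower in KO, as were 4.0% of all features, and neither was called.

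**Figure D4:**
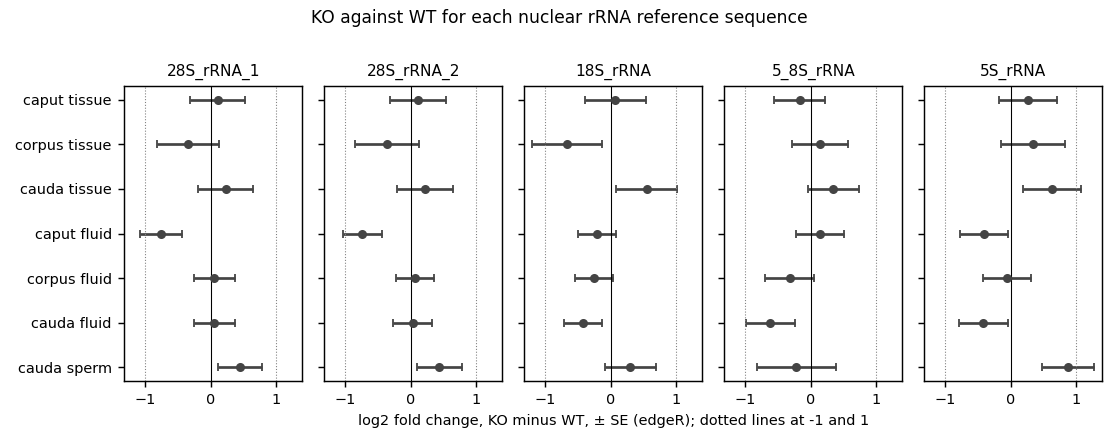
Log2 fold change of KO against WT, ± SE from edgeR, for each member in 7 comparisons; dotted lines mark -1 and 1. The values lie between -0.76 (28S_rRNA_1, caput fluid) and 0.88 (5S_rRNA, sperm), and none was called.

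Set beside tissue and fluid without a test, since tissue libraries were made by another method, cauda sperm held the largest share of member counts. Both 28S entries, which count largely the same reads, enter this share. Its denominator holds the rRNA repeat copies, at 70.9% to 82.2% of counts in tissue, 3.71% to 8.15% in fluid and 46.1% to 52.9% in sperm. The size of the gap between sample types therefore depends on them, and shares without them were not set side by side. Together the 5 took 37.3% ± 2.42 (SD, n = 4) of counts in WT and 38.3% ± 2.08 in KO (2-sided exact permutation p = 0.57, adjusted p = 0.70). 28S_rRNA_1 made up 14.01%, 13.1%, 12.9% and 13.7% in WT libraries 1 to 4 and 14.7%, 13.1%, 13.96% and 15.3% in KO. 18S_rRNA ran from 6.20% to 10.4% in WT and from 6.86% to 8.63% in KO, and the groups overlapped for both. 5_8S_rRNA was between 0.995% and 1.28% in the libraries numbered 1 to 3 of both genotypes, and at 4.74% in WT library 4 and 2.28% in KO library 4. Without these libraries its KO log2 fold change turned from -0.22 ± 0.60 to 0.45 (adjusted p = 0.59), so its direction rested on them, and without WT library 4 alone it was 0.91. 5S_rRNA was at 967, 502, 932 and 1598 CPM in WT and 2514, 1623, 1409 and 1793 in KO, with only WT library 4 inside the KO range. Its log2 fold change was 0.88 ± 0.40 (unadjusted p = 0.046, adjusted p = 0.28 by edgeR), and over the alternatives the adjusted p was 0.056 to 0.61. The lowest library, WT library 2, had 1287 counts on 5S_rRNA, which took 0.0444% of its counts. The 3 other WT libraries were at 0.117% to 0.155% and the KO libraries at 0.144% to 0.181%. The 4 ratios between members did not differ between genotypes beyond their spread (smallest exact permutation p = 0.23, adjusted p = 0.54).

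Set side by side without a test, since tissue libraries were made with ARM-seq and fluid and sperm libraries with OTTR-seq and the tables were made separately, 5S had the largest share of the 4 types in caput and corpus tissue, and 28S in fluid, sperm and 5 of 6 cauda tissue libraries (18S in KO cauda library 1). Of the counts on 28S_rRNA_1, 18S, 5.8S and 5S together, 28S took 13.7% to 21.7% in caput tissue, 33.7% to 40.7% in cauda tissue, 70.5% to 92.7% in fluid and 51.9% to 64.8% in sperm. 5S took 45.7% to 65.2% in caput tissue, 14.1% to 22.02% in cauda tissue, 1.48% to 5.13% in fluid and 0.181% to 0.809% in sperm. 5.8S took 6.30% to 22.9% in tissue, 0.0590% to 0.697% in fluid and 4.05% to 18.02% in sperm. Per base, with RefSeq lengths of 121 bases for Rn5s and 1849 for the 18S copy Rn18s-rs5, 5S fragments were above 18S fragments in tissue and fluid and below them in sperm. The ratio of 5S to 18S counts per base was 95.7 in WT caput tissue, 8.25 in WT cauda tissue, 3.94 in WT caput fluid, 2.72 in WT cauda fluid and 0.208 in WT sperm, as geometric means over libraries. The KO values were 111, 9.20, 3.396, 2.76 and 0.314.

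The members also differed in how much of their type lay on the reference sequence and how much on the genomic repeat copies, of which the tables held 124 to 239 for 28S, 25 to 33 for 18S and 203 to 647 for 5S. This is a description with no test, and since a read was counted on each equally good match it is not a share of reads. 28S_rRNA_1 held 88.5%, 89.3% and 92.7% of 28S type counts in WT caput fluid, 66.2%, 72.3% and 73.0% in WT corpus fluid and 68.9%, 58.7% and 65.4% in WT cauda fluid. In WT fluid the caput libraries lay above all others. In KO fluid the values were 79.4%, 84.6% and 89.5% in caput, 81.3%, 75.2% and 74.4% in corpus and 75.4%, 75.7% and 60.9% in cauda, so that caput and corpus overlapped. In sperm the share was 24% to 28.73% in WT and 28.69% to 30.01% in KO, which overlapped. In tissue it was 35.1% to 56.5%, and in cauda it was 44.8%, 41.3% and 35.1% in WT and 53.2%, 52.3% and 38.3% in KO.

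The tissue libraries numbered 3 had the lowest share of their group for all 3 types. For 18S_rRNA they held 71.5% to 79.6%, against 82.1% to 94.9% in those numbered 1 and 2, and for 5S_rRNA 1.91% to 1.93% against 2.20% to 2.54%. Within the libraries numbered 1 and 2 the 28S share was 41.3% to 53.9% in WT and 52.2% to 56.5% in KO. In fluid and sperm, 18S_rRNA held 53.6% to 66.0% of 18S type counts and 5S_rRNA 1.65% to 1.93% of 5S type counts.

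**Figure D5:**
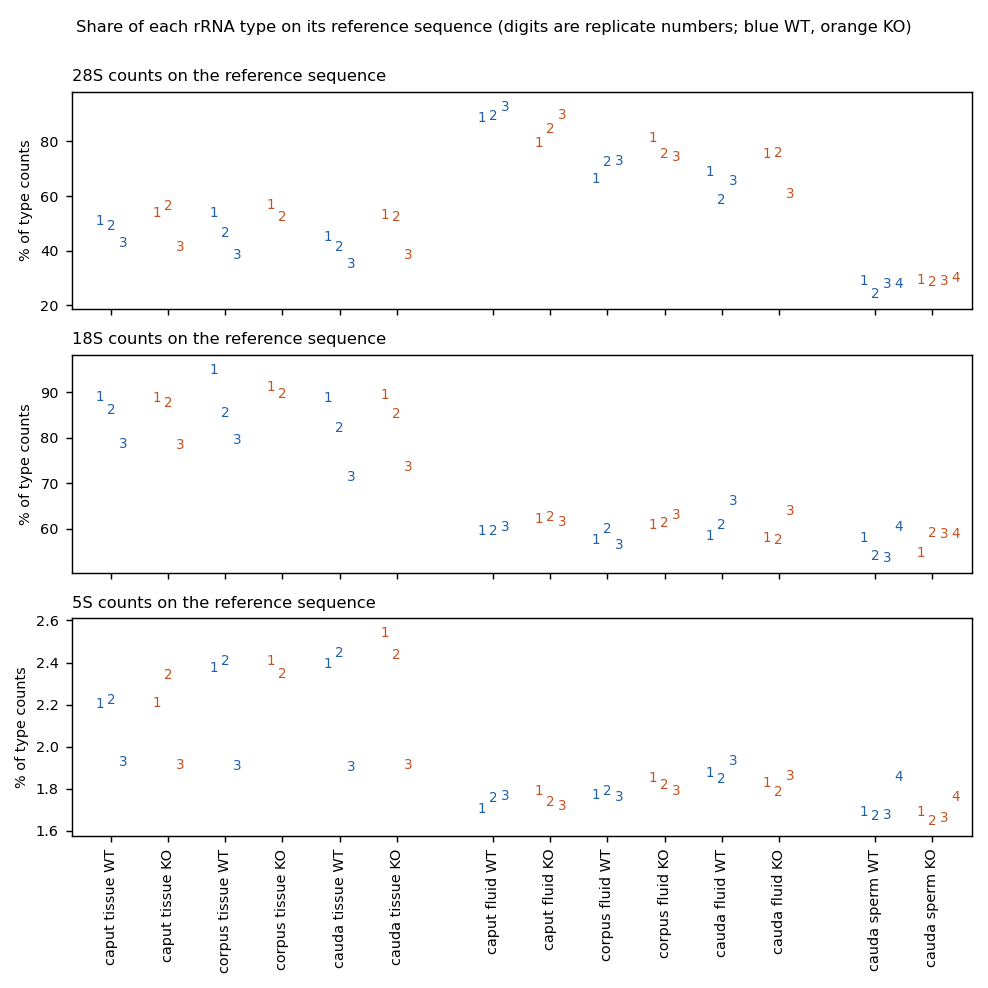
Share of the counts of each rRNA type (reference sequence plus repeat copies) that lay on the reference sequence, in percent; digits are replicate numbers, blue WT and orange KO, and the axes do not start at 0. In tissue the libraries numbered 3 lie lowest for every type, and in fluid the 28S share falls from up to 92.7% in caput to as little as 58.7% in cauda.

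RNAs that take part in cutting and folding the rRNA precursor were followed as a list of 12: the snoRNAs U3, U8 (Snord118), U13 (Snord13), U14 (Snord14a, c, d and e), U22 (Snord22) and U17 (Snora73a and b), and Rmrp, the RNA of RNase MRP. U3 was listed as Snord3a and Snord3b-ps1, names not among the features. It was counted under the names Rnu3a and Rnu3b, which were not in the list, so U3 was not followed. Of the 12, 10 passed the filter in tissue, 8 in fluid and 10 in sperm. In cauda tissue all 10 had a positive KO log2 fold change, with a median of 0.79 beside 0.12 for all features, and none was called (smallest adjusted p = 0.15, Snord13 at 1.11 ± 0.34), with 4 at an unadjusted p under 0.05 against 7.74% of all features higher. These list values are on the TMM scale alone. Scaling by library size alone turned 28S_rRNA_1 in this contrast from 0.23 to -0.32. In corpus fluid 1 was called, Snord118, which takes part in 5.8S and 28S maturation, at 1.66 ± 0.59 (adjusted p = 0.05, just under the threshold), against 13.5% of all features called higher, with a list median of 0.30 beside 0.10. Along the segments, Rmrp rose by 1.56 ± 0.33 from KO caput to KO cauda tissue (adjusted p = 0.0019), and Snora73a and Snord14a were called too (3 of 10, against 17.1% of all features higher). In WT tissue none of 10 was called in cauda (list median 0.26, all features -0.05). In WT fluid Snora73a and Snora73b were called lower in cauda by 2.52 and 2.47 on the log2 scale (2 of 8, against 15.4% of all features lower). In sperm none of 10 was called (median -0.10).

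Across the libraries of a table, the members' log2 CPM followed each other differently by sample type. These are descriptions, since libraries of a group share segment, genotype and depth. 28S_rRNA_1 and 18S_rRNA had a Pearson r of 0.99 over 17 tissue libraries, 0.89 over 8 sperm libraries and -0.28 over 18 fluid libraries, where 18S_rRNA and 5_8S_rRNA had r = 0.93. 28S_rRNA_1 and 5_8S_rRNA had r = 0.83 in tissue and -0.58 in fluid. Among non-rRNA features with a mean of at least 10 CPM, those most like 28S_rRNA_1 and 18S_rRNA in tissue were the piRNA loci pi-Lpp.1 and pi-Lpp.2 (r = 0.96 and 0.98). For 5_8S_rRNA they were Rn7sk and Rpph1, the RNA of RNase P (r = 0.93 and 0.91), and for 5S_rRNA they were Rnu3b4 and Rnu3b2, genes of U3 (r = 0.93). In fluid, 28S_rRNA_1 was most like tRNA-Ile-AAT-3_fiveprime (r = 0.85) and Gm47299 (r = 0.84), while 18S_rRNA and 5_8S_rRNA were most like 5′ fragments of tRNA-Val (r = 0.75 and 0.85) and 5S_rRNA like tRNA-Asp-GTC-1_threeprime (r = 0.71) and tRNA-His-GTG-2_fiveprime (r = 0.70). In sperm, 28S_rRNA_1 and 18S_rRNA were most like tRNA-Lys-TTT-3_other and tRNA-Lys-TTT-5_other, counts of tRNA reads outside the 5′, 3′ and whole classes (r = 0.91 to 0.95), 5_8S_rRNA like Gm22589 and Snora24 (r = 0.94), and 5S_rRNA like Gm25131 (r = 0.98) and Vaultrc5 (r = 0.94).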

How the data were processed

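Small RNAs of epididymis tissue (ARM-seq), epididymal fluid and cauda sperm (OTTR-seq) were sequenced after PNK treatment. The authors trimmed reads with cutadapt, mapped them with bowtie2 in a modified tRAX pipeline to mm10 plus mature tRNA and rRNA sequences, and deposited whole-number read counts per feature. The molecular tag was trimmed off, and the labels also name UMI-tools, but whether duplicates were removed is not given in the sources used here, so intervals cover the spread between libraries and not PCR duplication. A read was counted on every feature it matched equally well, so sums and shares are not numbers of reads, and 28S_rRNA_1, 28S_rRNA_2 and the repeat copies share reads.

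From these counts, features were filtered (filterByExpr, minimum count 10, minimum total 15), scaled by TMM and tested with edgeR's quasi-likelihood test (edgeR 4.0.16 in R 4.3.3), 1 model per table, with Benjamini-Hochberg adjustment over all features. The call rule was an adjusted p below 0.05 with a log2 fold change beyond 1 in either direction. Tests within single libraries' ratios and shares were 2-sided exact permutation tests (computed with numpy 2.4.6 and checked against scipy 1.17.1). Tested on simulated data with 200 features changed by a log2 fold change of 2, the fit called 57.5% of them in cauda tissue (3364 features), 63% in cauda fluid (1863) and 50.5% in sperm (2356). Alternatives were DESeq2 (1.42.0), other scalings, no filter, 2 groups alone, a block for the replicate number, and each library left out. The check of pairing correlated deviations of same-numbered libraries from their group means: every pair was above 0.1 in cauda tissue KO against WT, and between segments in WT tissue and in KO cauda against caput tissue, and not in all pairs of caput tissue or fluid or sperm.

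The 5 members, the lists and the tests were chosen with earlier results of these data known. Named features were the members, the list, the mitochondrial rRNAs and, per member and table, the 2 most alike. Groups followed the sample titles: for 7 caput libraries another label gave the section as cauda. No sample was said to share an animal, so p-values measure the spread between libraries. No 2 libraries of a group agreed within sampling noise. Sequences of the members are not reported here.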

Additional observations from a re-analysis of the deposited data

Results flagged for a closer look

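Of 34 sets of sperm values tested for a library far from its group (groups of 4, gap over range above the Dixon limit of 0.829), 5 had one. Chance alone gives about 1 in 20 of independent sets. These sets were not independent, since shares and ratios were built from the same counts, so the 2 rates cannot be set against each other. In WT sperm, library 4 held 4.74% of its counts on 5_8S_rRNA, against 0.995% to 1.28% in the other 3. Its log2 ratio of 5_8S_rRNA to 28S_rRNA_1 was -1.53, against -3.72 to -3.45. Its share of 5S type counts on the reference was 1.86%, against 1.67% to 1.69%. In KO sperm, library 4 held 2.28% on 5_8S_rRNA, against 1.11% to 1.26%. Library 1 of KO sperm had 54.7% of 18S type counts on the reference, against 58.7% to 59.1%. WT library 4 and KO library 4 held 3025269 and 3618739 counts in all, beside 2899859 and 1134840 in WT libraries 2 and 3, whose 5_8S_rRNA shares were not apart. What sets these libraries apart was not tested.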

How the results depend on the processing

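No member was called between KO and WT under any setting run, and 28S_rRNA_1 and 18S_rRNA stayed called in cauda against caput tissue in both genotypes under every setting. The fewest counts on a member were those of 5.8S in fluid, 193 in the lowest library. Some KO against WT directions turned. With library size alone, log2 fold changes turned to 0.0026 for 18S_rRNA in caput fluid, -0.16 and -0.18 for 28S_rRNA_1 and 18S_rRNA in caput tissue, -0.080 for 5_8S_rRNA in corpus tissue, -0.32, -0.027 and -0.31 for 28S_rRNA_1, 18S_rRNA and 5_8S_rRNA in cauda tissue, and -0.015 for 18S_rRNA in sperm. Between segments they turned to 0.12 for 28S_rRNA_1 in KO corpus against caput fluid, and to -0.14 and -0.057 for 5S_rRNA in WT and KO cauda against caput tissue. Members called in WT corpus against caput fluid went from 1 to 2 under this scaling and under TMM without rRNA features. The latter gave -0.15 and -0.035 for 28S_rRNA_1, KO against WT, in corpus and cauda fluid, 0.051 in KO corpus against caput fluid and -0.0045 for 18S_rRNA in caput tissue. DESeq2 and edgeR with its size factors each gave -0.026 and -0.035 for 28S_rRNA_1 in corpus and cauda fluid and -0.036 for 18S_rRNA in caput tissue. No filter gave -0.12 for 28S_rRNA_1 in corpus fluid. Fits of 2 groups alone gave 0.018 for 5S_rRNA in corpus fluid and -0.0037 for 18S_rRNA in caput tissue. The cause of these changes was not tested.

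With the replicate block, log2 fold changes of KO against WT turned to 0.00072 for 5S_rRNA in corpus fluid, -0.054 for 18S_rRNA in caput tissue, -0.080 and -0.0092 for 5_8S_rRNA and 5S_rRNA in corpus tissue and 0.15 for 5_8S_rRNA in sperm. Members called went from 1 to 0 in KO cauda against caput fluid and from 0 to 2 in KO corpus against caput tissue, where 18S_rRNA (1.30) and 5_8S_rRNA (1.05) passed. The shares of all features called in these blocked fits are not given here. In the KO against WT and fluid comparisons the labels do not say what same-numbered libraries share beyond the number. The fluid labels also carry it across segments. Between KO and WT, same-numbered libraries deviated together in cauda tissue (correlations of 0.28, 0.27 and 0.60). In caput tissue the correlations were 0.029, 0.52 and 0.72, and in corpus tissue 0.15 and -0.033. In KO corpus against caput tissue the labels carry the number across segments, and the correlations of the pairs, 0.063 and 0.033, were low. The block changed no call of 28S_rRNA_1, 18S_rRNA, 5_8S_rRNA or 5S_rRNA beyond these and that of 5_8S_rRNA in WT cauda tissue. The ratio differences between segments had the same values in the paired test with replicate block, none of which passed (adjusted p of 0.16 to 0.27): 28S_rRNA_1 to 28S_rRNA_2 at -0.045 in corpus and -0.048 in cauda tissue and -0.058 and -0.13 in fluid, 28S to 18S at -0.81 in cauda tissue and -1.18 and -1.52 in fluid, 5.8S to 28S at -2.14 in cauda tissue and 2.13 and 2.55 in fluid, and 5S to 5.8S at -1.52 and -1.45 in fluid.

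Chosen after seeing the data, tissue libraries 1 and 2 alone gave -0.25 and -0.087 for 5_8S_rRNA and 5S_rRNA, KO against WT, in corpus tissue, and ratio differences of -0.054 and -0.062 (28S_rRNA_1 to 28S_rRNA_2, corpus and cauda), -0.78 (28S to 18S, cauda) and -2.21 (5.8S to 28S, cauda), which no longer passed with fewer arrangements, and 0.033 for KO against WT in 28S to 18S within segments. Sperm libraries 1 to 3 alone gave 0.45 for 5_8S_rRNA, -0.012 for 28S to 18S and 0.011 for 5.8S to 28S.

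Leaving out 1 library at a time, members called against caput ran from 1 to 2 (WT corpus fluid), 1 to 3 (WT cauda fluid), 0 to 1 (KO corpus fluid), 0 to 1 (KO cauda fluid) and 1 to 3 (WT corpus tissue). KO against WT log2 fold changes ran from -0.23 to 0.023 (18S_rRNA, caput fluid), -0.17 to 0.20 and -0.35 to 0.20 (28S_rRNA_1 and 5S_rRNA, corpus fluid), -0.085 to 0.20 (28S_rRNA_1, cauda fluid), -0.21 to 0.33, -0.22 to 0.25 and -0.55 to 0.020 (28S_rRNA_1, 18S_rRNA and 5_8S_rRNA, caput tissue), -1.03 to 0.11 and -0.16 to 0.61 (18S_rRNA and 5_8S_rRNA, corpus tissue), -0.29 to 0.46, -0.020 to 0.80 and -0.23 to 0.57 (28S_rRNA_1, 18S_rRNA and 5_8S_rRNA, cauda tissue) and -0.10 to 0.51 and -0.61 to 0.91 (18S_rRNA and 5_8S_rRNA, sperm). 28S_rRNA_1 in KO corpus against caput fluid ran from -0.39 to 0.21. Ratios between segments ran, in tissue, from -0.056 to -0.032 and -0.058 to -0.034 (28S_rRNA_1 to 28S_rRNA_2, corpus and cauda) and -0.53 to -0.26 (28S to 18S, corpus). In fluid corpus and cauda they ran from -0.064 to -0.046 and -0.16 to -0.091 (28S_rRNA_1 to 28S_rRNA_2), -1.28 to -1.05 and -1.64 to -1.37 (28S to 18S), 1.87 to 2.30 and 2.29 to 2.72 (5.8S to 28S) and -1.70 to -1.35 and -1.60 to -1.26 (5S to 5.8S). Ratios of KO against WT within segments ran from -0.0059 to 0.011 and -0.15 to 0.030 in tissue (28S_rRNA_1 to 28S_rRNA_2, 28S to 18S) and, in fluid, from -0.025 to 0.018, -0.020 to 0.17, -0.19 to 0.10 and -0.12 to 0.13 (28S_rRNA_1 to 28S_rRNA_2, 28S to 18S, 5.8S to 28S, 5S to 5.8S). In sperm 28S to 18S ran from -0.084 to 0.20 and 5.8S to 28S from -0.51 to 0.22. The log2 ratio of the share on the 5 members ran from -0.058 to 0.15 in corpus fluid and from -6.3e-05 to 0.073 in sperm.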
